A study of Mus musculus with 5 samples.

Results

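Complement is a set of blood proteins and cell receptors that marks particles for uptake. The genes described here are 7 that macrophages express in this system: the 3 chains of C1q (*C1qa*, *C1qb* and *C1qc*), properdin (*Cfp*) and the receptors *C3ar1*, *C5ar1* and *Vsig4*. They were chosen by their known function, from 18820 genes that had an array row carrying a single gene symbol, and each of the 7 had exactly 1 such row. The question was how these transcripts responded in the liver when mice received CSF1-Fc, a fusion of pig colony-stimulating factor 1 (CSF1, the growth factor of the macrophage lineage) with part of a pig immunoglobulin.

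Livers came from adult C57BL/6 mice that carried no engineered allele according to the labels. There were 3 CSF1-Fc mice and 2 PBS mice, all injected under the skin on 4 consecutive days and killed on day 5, and CSF1-Fc was given at 1 mg/kg. The RNA of each liver was amplified, labelled with biotin and hybridised to 1 Affymetrix Mouse Gene 1.1 ST array. Values are log2 of the normalised intensity, on which the median of an array lay between 4.96 and 5.05 and the brightest row between 13.59 and 13.64. CSF1-Fc and PBS were compared with limma, adjusted p-values were taken over all 35556 rows, and 0.05 was the threshold. Whole liver was measured, so more cells of a type and more RNA per cell cannot be told apart. With 3 mice against 2, an exact permutation test has 10 splits and cannot give a two-sided p below 0.2.

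C1q is the recognition molecule of the classical pathway. It is a bundle of heterotrimers of the A, B and C chains, binds immune complexes, dying cells and C-reactive protein, and is made chiefly by macrophages and dendritic cells, in contrast to most circulating complement proteins, which hepatocytes secrete. Properdin stabilises the convertase of the alternative pathway and is a product of myeloid cells. *C3ar1* and *C5ar1* encode G protein-coupled receptors for the anaphylatoxins, small fragments that attract and activate leukocytes, and *Vsig4* encodes CRIg, a receptor by which Kupffer cells, the resident macrophages of liver sinusoids, capture particles coated with fragments of C3.

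The C1q genes lie side by side on mouse chromosome 4 in the order *C1qb*, *C1qc* and *C1qa* in the RefSeq annotation (GRCm38.p6). RefSeq promoter windows were at hand for 6 of the 7 genes and not for *C1qa*. The 250 bases before the start site are shown for *C1qb*, *C1qc* and *Vsig4*, the 3 genes whose windows held a match to GAGGAA. Each match is in capitals. The windows of *Cfp*, *C3ar1* and *C5ar1* held none and are not shown. GAGGAA is the core bound by PU.1, the ETS factor of the myeloid lineage.

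*C1qb* at chr4:136886201-136886450, minus strand: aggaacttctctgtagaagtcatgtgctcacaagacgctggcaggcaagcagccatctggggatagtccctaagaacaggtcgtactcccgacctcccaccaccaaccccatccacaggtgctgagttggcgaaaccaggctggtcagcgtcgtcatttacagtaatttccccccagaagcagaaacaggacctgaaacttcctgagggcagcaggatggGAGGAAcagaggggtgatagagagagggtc

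*C1qc* at chr4:136892915-136893164, minus strand: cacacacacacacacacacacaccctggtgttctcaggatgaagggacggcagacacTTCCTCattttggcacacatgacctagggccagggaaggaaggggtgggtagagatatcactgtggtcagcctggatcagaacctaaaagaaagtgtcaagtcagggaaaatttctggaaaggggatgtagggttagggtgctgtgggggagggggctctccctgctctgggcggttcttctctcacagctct

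*Vsig4* at chrX:96293439-96293688, minus strand: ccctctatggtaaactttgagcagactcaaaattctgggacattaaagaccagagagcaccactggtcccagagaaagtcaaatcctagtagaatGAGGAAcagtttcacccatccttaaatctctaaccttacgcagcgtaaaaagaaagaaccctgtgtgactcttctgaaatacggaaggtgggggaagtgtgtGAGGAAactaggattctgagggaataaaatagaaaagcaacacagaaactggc

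GAGGAA was found, on both strands searched, in the windows of 3 of the 6 genes, and in 23.3% of 32851 RefSeq windows of the same length. On the gene's own strand it lay 30 to 25 bases before the start of *C1qb*, and 155 to 150 and 53 to 48 before *Vsig4*. That of *C1qc*, 193 to 188 bases before the start, lay on the opposite strand and reads TTCCTC in the window. The AP-1 site TGACTCA was in the window of *C3ar1* alone, 22 to 16 bases before its start, and in 4.46% of all windows. TATAAA was also in the window of *C3ar1* alone, and in 12.4% of all. The ETS-IRF composite, the C/EBP site TTGCNNAA and the MAF half-site TGCTGAC were in none of the 6, and in 2.3%, 9.56% and 3.81% of all windows. The motifs were picked after the expression values were known, and a match of letters does not show that a factor binds.

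All 7 transcripts were higher in CSF1-Fc treated livers, by 3.13-fold to 5.79-fold. Each passed the limma threshold, where 8.34% of all named genes and 5.77% of all rows were called higher. On every CSF1-Fc array each of the 7 lay above both PBS arrays, as did 18.2% of named genes, and 29.3% of named genes lay below both PBS arrays on every CSF1-Fc array. The median log2 fold change was 2.38 over the 7, against -0.08 over all named genes. Between 233 genes (for *Cfp*) and 654 genes (for *Vsig4*) of the 18820 had a larger log2 fold change.

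**Figure D1:**
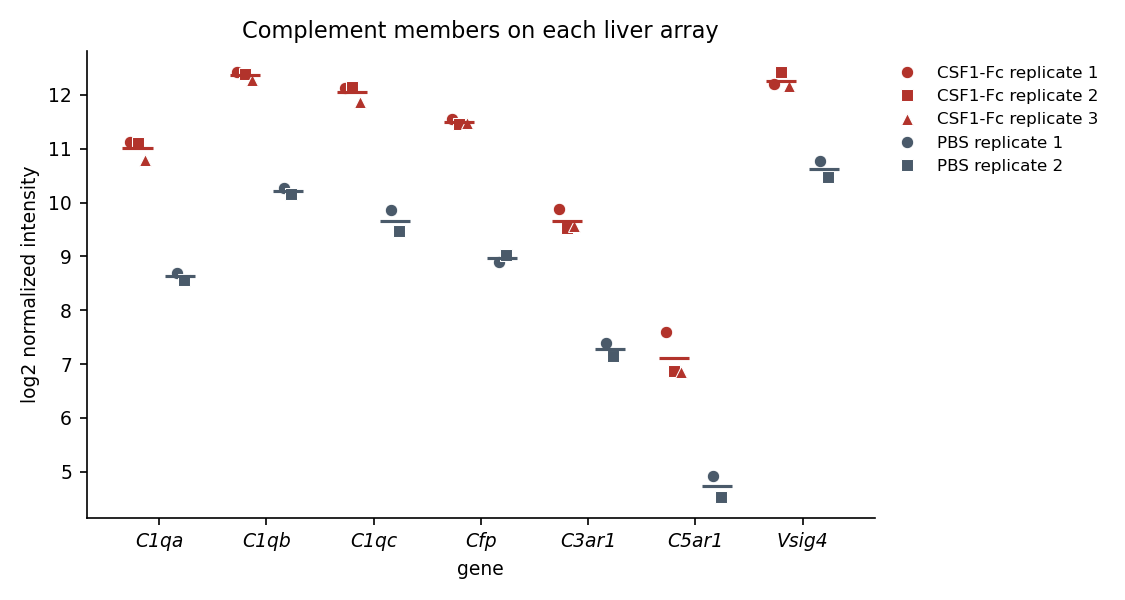
Log2 normalised intensity (vertical axis) of the 7 genes (horizontal axis) on each array, with CSF1-Fc in red at the left of each gene, PBS in grey at the right, a marker shape for each replicate and a horizontal line at each group mean. The groups are apart for every gene, most widely for *Cfp* (a gap of 2.44) and least for *Vsig4* (a gap of 1.41).

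The C1q chains rose together. *C1qa* was at log2 intensities of 11.13, 11.11 and 10.78 in the CSF1-Fc livers, replicates 1 to 3, and at 8.69 and 8.57 in the PBS livers. The groups were 2.09 log2 units apart at their nearest, and CSF1-Fc replicate 3 was the lowest of its group. The log2 fold change of *C1qa* was 2.38 (standard error, SE, 0.16, limma adjusted p = 0.000465), or 5.19-fold with a 95% interval of 3.99 to 6.77.

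*C1qb* was at 12.43, 12.40 and 12.28 in CSF1-Fc livers and at 10.27 and 10.16 in PBS livers. Its replicates lay close, within 0.15 log2 units in CSF1-Fc and 0.11 in PBS. Its log2 fold change was 2.15 (SE 0.13, limma adjusted p = 0.000422), a 4.44-fold difference with a 95% interval of 3.59 to 5.50.

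*C1qc* was at 12.13, 12.14 and 11.87 in CSF1-Fc livers and at 9.86 and 9.47 in PBS livers, so that the PBS livers differed more from each other (0.39) than the CSF1-Fc livers did (0.27). The log2 fold change was 2.38 (SE 0.17, limma adjusted p = 0.0006), or 5.20-fold. Without variance moderation its adjusted p by limma was 0.0507. All 3 chains were lowest in CSF1-Fc replicate 3 and higher in PBS replicate 1 than in PBS replicate 2. The change of *C1qb* was smaller than that of *C1qa* by 0.23 log2 units and than that of *C1qc* by 0.23, while *C1qa* and *C1qc* differed by less than 0.01. The intervals of the 3 fold changes overlap, but they ignore that the chains were measured on the same arrays. Within arrays, *C1qa* minus *C1qb* was -1.49 to -1.29 in CSF1-Fc and -1.59 to -1.57 in PBS livers. *C1qc* minus *C1qb* was -0.405 to -0.256 in CSF1-Fc and -0.690 to -0.407 in PBS livers. The groups did not overlap for either pair, and no test of these pairs was run.

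Properdin had the smallest spread of the 7 among CSF1-Fc livers. *Cfp* was at 11.55, 11.46 and 11.48 in CSF1-Fc livers and at 8.90 and 9.02 in PBS livers. The SD was 0.04 in CSF1-Fc (n = 3) and 0.08 in PBS (n = 2), against a difference between the groups of 2.53 (SE 0.12, limma adjusted p = 0.000357). The rise was 5.79-fold, with a 95% interval of 4.71 to 7.12. This was the highest of the 7 estimates, but its place was not stable: without PBS replicate 1 *Cfp* was at 2.48, *C1qc* at 2.57 and *C5ar1* at 2.57, and with array weights *Cfp* was at 2.57 and *C5ar1* at 2.74.

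Both anaphylatoxin receptors were higher in CSF1-Fc livers. *C3ar1*, the receptor for C3a, was at 9.88, 9.53 and 9.57 in CSF1-Fc livers and at 7.39 and 7.16 in PBS livers. CSF1-Fc replicate 1 was the highest, and the groups were 2.14 log2 units apart at their nearest. The log2 fold change was 2.39 (SE 0.16, limma adjusted p = 0.000485), or 5.23-fold.

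*C5ar1*, the receptor for C5a, was at 7.60, 6.87 and 6.85 in CSF1-Fc livers and at 4.92 and 4.54 in PBS livers. It was the single member below the array median in both PBS livers, where the signal approaches that of absent transcripts and the size of the change is uncertain. CSF1-Fc replicate 1 was again the highest, and the spread in CSF1-Fc, an SD of 0.42 (n = 3), was the widest of the 7 genes. The log2 fold change was 2.38 (SE 0.27, limma adjusted p = 0.00307), a 5.20-fold rise with a 95% interval of 3.33 to 8.12. Its adjusted p by limma was 0.106 without variance moderation. *C5ar1* is also abundant on neutrophils, and neutrophil markers rose in the same livers: 10 of 12 passed the test, led by *Retnlg*, *S100a8* and *Mmp9*, with a median log2 fold change of 2.33 and a summed intensity of 2068 to 2393 in CSF1-Fc and 253 to 348 in PBS. Of these 12 markers, 7 were below the array median in both PBS livers, so the size of their changes is uncertain too. The part of neutrophils in the *C5ar1* signal was not tested. In liver sections the study reported no neutrophil infiltration, and in blood it reported raised neutrophil counts.

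*Vsig4* rose least. It was at 12.19, 12.43 and 12.17 in CSF1-Fc livers and at 10.77 and 10.47 in PBS livers, with replicate 2 the highest in CSF1-Fc. No array of one group reached the other, and the gap was 1.41 log2 units. The log2 fold change was 1.65 (SE 0.16, limma adjusted p = 0.00157), or 3.13-fold with a 95% interval of 2.40 to 4.07. The adjusted p by limma was 0.0588 without variance moderation. Signal near the top of an array's range can be compressed. The mean in CSF1-Fc livers was 12.26 for *Vsig4* and 12.37 for *C1qb*, whose log2 fold change was 2.15. Whether compression touched either gene was not tested.

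**Figure D2:**
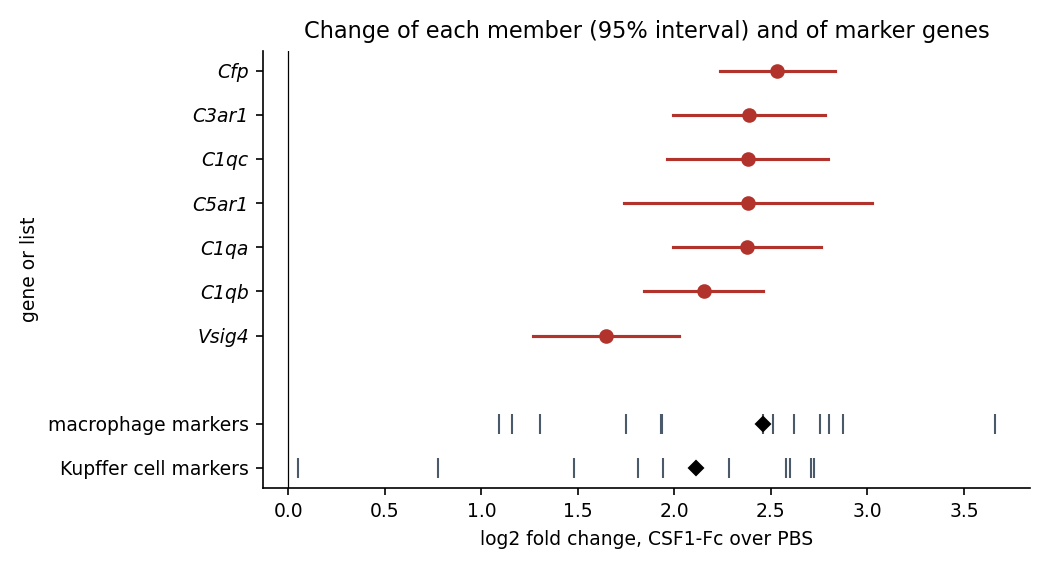
Log2 fold change, CSF1-Fc over PBS (horizontal axis), of the 7 genes with 95% limma intervals in red, above the single genes (grey ticks) and medians (black diamonds) of the macrophage and Kupffer cell marker lists. The 7 genes run from 1.65 for *Vsig4* to 2.53 for *Cfp*, and the list medians are 2.46 and 2.11.

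Relative to the C1q chains, *Vsig4* was lower on each CSF1-Fc array than on either PBS array, and for the other 3 genes compared the groups overlapped. On each array the mean log2 value of the 3 chains was subtracted from the member, and the PBS mean was set to 0. *Cfp* then stood at 0.19, 0.12 and 0.38 in CSF1-Fc and at -0.16 and 0.16 in PBS livers, an overlap, with a difference of 0.23 (exact permutation p = 0.4). *C3ar1* was at 0.21, -0.12 and 0.16 in CSF1-Fc livers and at 0.01 and -0.01 in PBS livers, a difference of 0.08 (exact permutation p = 0.6). For *C5ar1* the values were 0.48, -0.23 and -0.02 in CSF1-Fc livers and 0.09 and -0.09 in PBS livers, a difference of 0.08 (exact permutation p = 1).

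*Vsig4* was at -0.81, -0.57 and -0.58 in CSF1-Fc livers and at 0.04 and -0.04 in PBS livers on this scale. The groups did not overlap. The difference was -0.66 log2 units, and stayed between -0.70 and -0.58 when each mouse was left out. The exact permutation p was 0.2, the smallest that these arrays allow, and 4 genes were compared in this way. The unequal change shows on every array but does not pass a test at this number of mice. The share of all named genes without overlap on this scale was not computed.

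**Figure D3:**
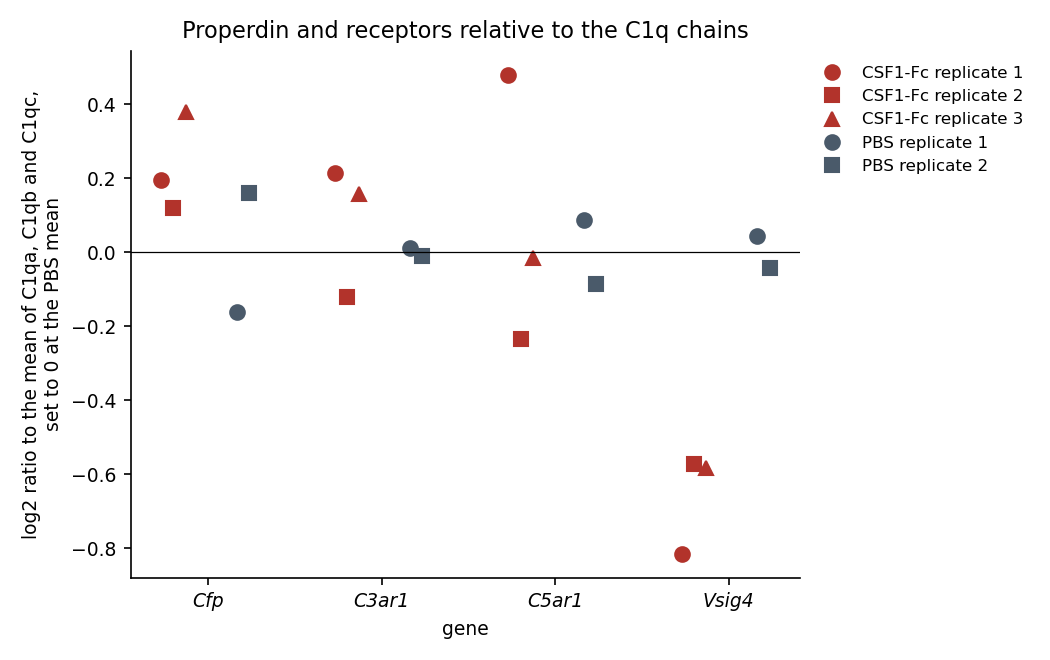
Log2 ratio of properdin and the 3 receptors to the mean of the C1q chains on each array, set to 0 at the PBS mean (vertical axis), by gene (horizontal axis), with CSF1-Fc in red at the left and PBS in grey at the right. *Vsig4* lies at -0.81 to -0.57 on the CSF1-Fc arrays, below both PBS arrays, and the groups overlap for the other genes.

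Markers of macrophages moved with the 7 genes. All 13 macrophage markers measured, among them *Fcgr1*, *Cd68* and *Tyrobp*, were higher in CSF1-Fc livers, with a median log2 fold change of 2.46, a range of 1.09 to 3.66, and a summed intensity of 22987 to 25331 in CSF1-Fc and 4829 to 5162 in PBS. None of the 13 was below the array median in both PBS livers. Of 10 Kupffer cell markers, 9 were higher, led by *Timd4*, *Spic* and *Cd163*, with a median of 2.11 and a summed intensity of 18096 to 18983 in CSF1-Fc and 4505 to 5596 in PBS. The other, *Id3*, was at 0.05 (SE 0.51, limma adjusted p = 0.970), and its PBS values lay 1.81 log2 units apart. All 5 inflammatory monocyte markers were higher too, *Plac8*, *Ccr2* and *F13a1* most, with a median of 2.49 and a summed intensity of 1642 to 2078 in CSF1-Fc and 132 to 163 in PBS, and 4 of the 5 were below the array median in both PBS livers. The part of each cell type in the rise of the 7 genes was not tested.

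Set against the median macrophage marker on each array, 6 of the 7 genes changed by -0.19 to 0.19 log2 units, with overlapping groups. *Vsig4* changed by -0.69 relative to these markers, with groups that did not overlap (exact permutation p = 0.2, with 7 genes compared). Against the mean over the macrophage markers, a summary added after the data were seen, *Vsig4* changed by -0.57, *C1qb* by -0.07 and *Cfp* by 0.31, and the groups did not overlap for these 3 (exact permutation p = 0.2 each). Against the mean over the Kupffer cell markers, *Vsig4* changed by -0.25 and the others by 0.26 to 0.64, with no overlap between groups for any of the 7 (exact permutation p = 0.2 each). Against the median Kupffer cell marker *Vsig4* changed by -0.04, with overlapping groups (exact permutation p = 0.8), and the others by 0.46 to 0.84. The groups also overlapped there for *C1qb*, *C3ar1* and *C5ar1* (exact permutation p = 0.6, 0.4 and 0.4) and not for *C1qa*, *C1qc* and *Cfp* (exact permutation p = 0.2 each). The PBS livers lay far apart on this scale, at -0.42 and 0.42 for *Vsig4*. The median Kupffer cell marker was at 9.28 and 8.15 in PBS livers. *Id3*, at 9.35 and 7.54, was among the middle values that set it in both. The size of a change relative to the markers thus depended on the profile. The marker profiles themselves rose by 1.69 to 2.34 log2 units, so a gene with no change would tend to stand apart on these scales too. The share of all named genes without overlap on them was not computed.

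Markers of other leukocytes that carry anaphylatoxin receptors were less uniform. Of 8 mast cell and eosinophil markers 1 was higher, the chemokine receptor *Ccr3* at 1.48 (SE 0.30, limma adjusted p = 0.0329), and 5 were below the array median on every array, *Cpa3* and *Mcpt4* of mast cells among them. Of 8 dendritic cell markers 1 was higher, *Cd209a* at 0.76 (SE 0.13, limma adjusted p = 0.0163), and 3 of the 8 had a negative log2 fold change. Of 10 markers of T, B and NK cells 3 were higher, *Cd79a*, *Cd3g* and *Ms4a1*, and 9 had a positive log2 fold change. *Cd3d* (0.01), *Cd3e* (0.25) and *Cd4* (-0.51) did not pass. In both PBS livers 7, 4 and 9 genes of these 3 lists were below the array median, the called genes among them. The size of their changes is uncertain. Of 15 genes for proteins that hepatocytes secrete, limma called 0 at the adjusted threshold and 0 at an unadjusted p under 0.05, and their median log2 fold change was -0.11. The lowest p was that of *Plg*, plasminogen, at -0.41 (SE 0.19, limma adjusted p = 0.253). Of 8 sinusoidal endothelial markers, *Cdh5* was higher and *Clec4g* lower.

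Among the other complement genes few were called in either direction. Of 51 other complement genes listed, 40 had a row with a single symbol and the others are not analysed here. Limma called 4 of the 40 higher in CSF1-Fc livers and 4 lower, and 32 did not pass. Of all named genes 8.34% were higher and 3.95% lower, and 3.19% of all rows were lower. Over the 40 genes the log2 fold changes had a median of -0.40. At an unadjusted p under 0.05 by limma, 2484 of all 18820 named genes were higher and 2735 lower. Of the 40 genes, 7 were higher and 18 lower at that p. The number called lower was 0 when PBS replicate 1 was left out, 1 when PBS replicate 2 or CSF1-Fc replicate 1 was, and 1 with the replicate number as a block, and 17 with array weights.

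**Figure D4:**
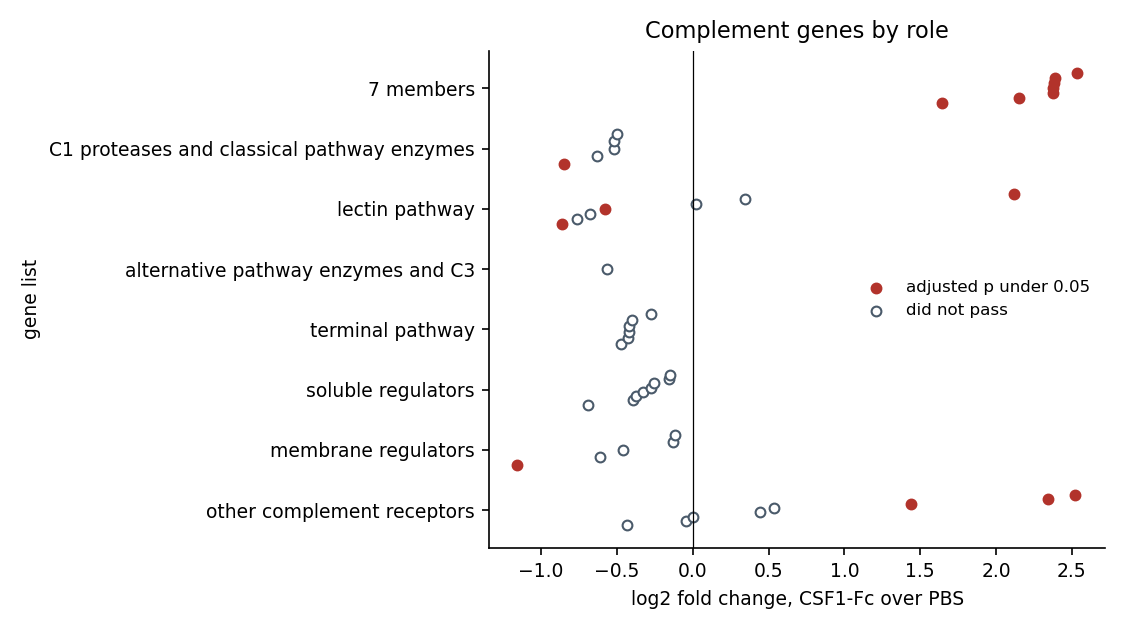
Log2 fold change, CSF1-Fc over PBS (horizontal axis), of complement genes grouped by role (vertical axis), with filled red points for an adjusted p under 0.05 and open grey points for genes that did not pass. The 7 members lie at 1.65 to 2.53, and 32 of the 40 other genes lie below 0. Of all 18820 named genes, which are not drawn, 11651 had a log2 fold change below 0.

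The other genes that rose were a ficolin and receptors. *Fcna*, ficolin A, a lectin pathway recognition molecule that macrophages of liver and spleen make in mice, was at 10.74, 10.50 and 10.55 in CSF1-Fc livers and at 8.52 and 8.44 in PBS livers, a log2 fold change of 2.12 (SE 0.14, limma adjusted p = 0.00045). This lies inside the range of the 7 genes. *Itgam* and *Itgb2*, the subunits of complement receptor 3, which binds iC3b on phagocytes, were at 2.52 (SE 0.26, limma adjusted p = 0.00228) and 2.35 (SE 0.16, limma adjusted p = 0.000485). *Itgam* was near the array median in PBS livers, at 4.98 and 5.46, and at 7.68, 7.38 and 8.16 in CSF1-Fc livers. *Cd93*, a receptor of endothelial and myeloid cells that was first described as binding C1q, was at 1.44 (SE 0.16, limma adjusted p = 0.0031). Without variance moderation the calls of *Itgam* (adjusted p = 0.0971) and *Cd93* (adjusted p = 0.0737) were lost by limma. The second C5a receptor, *C5ar2*, was at 6.98, 6.53 and 6.96 in CSF1-Fc livers and 6.27 and 6.31 in PBS livers, a log2 fold change of 0.53 that did not pass (SE 0.18, limma adjusted p = 0.130). *C5ar2* was singled out after its values were seen.

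C1q acts through the proteases C1r and C1s, and their genes did not rise with it. Of 5 genes for C1 proteases and classical pathway enzymes, 1 was lower and 4 did not pass, with log2 fold changes of -0.85 to -0.50, and all 5 were lower at an unadjusted p under 0.05. *C2*, whose product is the protease of the classical convertase, was at 8.54, 8.36 and 8.85 in CSF1-Fc livers and 9.28 and 9.59 in PBS livers, a log2 fold change of -0.85 (SE 0.19, limma adjusted p = 0.0440). By limma its call was lost when CSF1-Fc replicate 1 (adjusted p = 0.149) or CSF1-Fc replicate 2 (0.0787) was left out. It was also lost with the replicate number as a block (limma adjusted p = 0.0554) and without variance moderation (0.215). Centred on hepatocyte secreted protein genes, the limma adjusted p was 0.0501. Leaving out a PBS mouse leaves 1 in that group, so only the size of the change is given here, with no call. The log2 fold change of *C2* was -1.01 without PBS replicate 1 and -0.70 without PBS replicate 2.

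In the lectin pathway *Mbl1*, a mannose-binding lectin, fell by 0.86 on the log2 scale (SE 0.13, limma adjusted p = 0.00962), and *Colec11*, a collectin, was at -0.58 (SE 0.13, limma adjusted p = 0.0493). The other mannose-binding lectin, *Mbl2*, went the other way, at 0.34, and did not pass (SE 0.12, limma adjusted p = 0.165). It was at 9.89, 9.98 and 9.87 in CSF1-Fc livers and at 9.63 and 9.51 in PBS livers. By limma *Mbl1* did not pass without PBS replicate 1 (adjusted p = 0.0967), PBS replicate 2 (0.0666) or CSF1-Fc replicate 1 (0.0514), with the replicate number as a block (0.0582) or without variance moderation (0.0503). *Colec11* did not pass when any single mouse was left out, with adjusted p-values of 0.0649 to 0.271, nor with the block (0.137). *Mbl1* and *Colec11* have collagen-like tails, as C1q has.

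For the alternative pathway, which properdin serves, the convertase protease *Cfb* was at -0.57 (SE 0.22, limma adjusted p = 0.189). Of 6 terminal pathway genes limma called 0 at the adjusted threshold and 3 lower at an unadjusted p under 0.05. The lowest p was that of *C8b*, a chain of the membrane attack complex, at -0.48 (adjusted p = 0.112). Of 8 soluble regulators 0 passed, and 2 were lower at an unadjusted p under 0.05 by limma. *Cpn2*, a subunit of the carboxypeptidase that inactivates anaphylatoxins, was at -0.69 (SE 0.19, limma adjusted p = 0.0779). By limma it passed without CSF1-Fc replicate 3 (adjusted p = 0.0193), with quantile normalisation (0.0428) and with the filter on dim rows (0.0467). It also passed by limma on rows with 1 symbol (adjusted p = 0.0238), with array weights (0.00892) and with the mean over rows (0.0205). It did not pass with either centring, a robust variance trend, unmoderated variances or the block, or without CSF1-Fc replicate 1 or 2. With 1 PBS mouse left, the log2 fold change of *Cpn2* was -0.68 without PBS replicate 1 and -0.70 without PBS replicate 2, given with no call. Among 5 membrane regulators 1 was lower: *Cd59b*, an inhibitor of the membrane attack complex, was at 6.22, 6.33 and 6.04 in CSF1-Fc livers and 7.44 and 7.26 in PBS livers, a log2 fold change of -1.16 (SE 0.15, limma adjusted p = 0.00532). It did not pass without variance moderation (limma adjusted p = 0.0721). When PBS replicate 1 was left out the log2 fold change of *Cd59b* was -1.07, a size given with no call because 1 PBS mouse remained. *Cd59b* has a near copy, *Cd59a*, and how the array separates them was not tested.

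The genes closest in pattern were sought by the Euclidean distance of log2 values over the 5 arrays, each gene centred on its mean, so that the distance weighs the difference between the groups most. Closest to the mean of the C1q chains were *Stk17b* (distance 0.09, log2 fold change 2.22), *Tmem229b* (0.09 and 2.36) and *Evl* (0.10 and 2.36). Closest to *Cfp* was *Adgre1*, which encodes a surface antigen of mouse macrophages, at a distance of 0.11 and a log2 fold change of 2.62, then *Rab7b* and *Rassf4*. *Fgd2*, *Sdc3* and *Bach2os* were closest to *C3ar1*, and *Vsir*, *Bach2os* and *Anxa3* to *C5ar1*. Closest to *Vsig4* were *Pmp22* (distance 0.10, log2 fold change 1.65), *Hat1* (0.12 and 1.62) and *Il18bp* (0.13 and 1.66). Among the 7 genes the nearest pair was *C1qa* and *C1qc*, at 0.20, and the farthest was *C5ar1* and *Vsig4*, at 1.07.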

How the data were processed

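Livers of 3 CSF1-Fc and 2 PBS mice were measured on 1 array each. The authors deposited normalised intensities on a linear scale, 1 per transcript row, with a normalisation not stated in the labels or methods used here. Arrays were checked in Affymetrix Expression Console 1.1, per the labels, and imported into Partek Genomics Suite. The study's methods name RNA Bee for extraction, and the sample labels name Trizol.

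Log2 values were taken with no pseudocount or filter and tested with limma (version 3.58.1, under R 4.3.3, with lmFit on 1 mean per group, eBayes), with 3 residual and 3.34 prior degrees of freedom and Benjamini-Hochberg adjustment over 35556 rows. Of these rows, 21218 had 1 gene symbol by the platform annotation given, 1881 had several and 12457 are unnamed here. A gene was represented by its brightest row with 1 symbol. The exact permutation test compared ratios over all splits of the arrays. On data simulated for CSF1-Fc against PBS at 35556 rows, the same steps were tested: 20 of 67 rows changed by 1 log2 unit, 51 of 67 changed by 2 and 62 of 66 changed by 3 were recovered, with 4 false calls. The simulated noise was normal and independent between rows, and far fewer rows were changed than limma called in the data. Recovery in the data may therefore differ. The number of arrays limits the precision.

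The members and the lists of pathway genes and markers were chosen with earlier results of these data known. The text names all 7 members, the 3 nearest genes by distance, and from each list up to 3 called genes of largest change (if none was called, that of lowest p). *Id3*, *Cpa3*, *Mcpt4*, *C5ar2*, *Mbl2*, *Cd3d*, *Cd3e* and *Cd4* fall outside this rule and were named with their values known. Settings also tried were quantile normalisation, centring on the array median or on hepatocyte secreted protein genes, a filter on a mean log2 of at least 5, rows with 1 symbol, the mean over the rows of a gene, a robust variance trend, unmoderated variances, array weights, a block for the replicate number, leaving out each mouse, and a threshold of 0.01.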

Additional observations from a re-analysis of the deposited data

How the results depend on the processing

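Each of the 7 genes kept its direction under all 15 alternatives, with log2 fold changes of 2.48 to 2.60 for *Cfp*, the narrowest range but that of *C1qb* (2.10 to 2.22), and 2.13 to 2.74 for *C5ar1*, the widest, and all 7 were called in 14 of them. Without variance moderation, limma called 4 of the 7, and the adjusted p was 0.0507 for *C1qc* (2.38), 0.106 for *C5ar1* (2.38) and 0.0588 for *Vsig4* (1.65). At an adjusted p under 0.01 all 7 were called. The replicate numbers mark no shared animal, and deviations of same-numbered arrays correlated at -0.07 and -0.25. With the replicate number as a block, limma called all 7 members, 1577 rows higher and 927 lower, and 4 other complement genes higher and 1 lower.

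Of 35556 rows, 2052 were higher and 1133 lower. The counts were 550 and 127 without moderation, 3416 and 3805 with array weights, 1255 and 177 at an adjusted p under 0.01, and 1079 to 2053 and 134 to 1768 when each mouse was left out, while 1772 were lower among rows with 1 symbol. Other complement genes higher numbered 2 without moderation and 4 to 5 when each mouse was left out. Those lower numbered 7 with quantile normalisation, 2 centred on hepatocyte secreted protein genes, 7 with the filter on dim rows, 10 on rows with 1 symbol, 0 without moderation, 17 with array weights, 14 with the mean over the rows of a gene, 2 at an adjusted p under 0.01, and 0 to 6 when each mouse was left out. The causes were not tested.

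Changes relative to the macrophage markers were between -0.19 and 0.19 for 6 genes, and for 5 of these turned sign when a mouse was left out: the ranges were -0.13 to 0.22 for *C1qa*, -0.13 to 0.20 for *C1qc*, -0.00401 to 0.39 for *Cfp*, -0.0138 to 0.17 for *C3ar1* and -0.16 to 0.24 for *C5ar1*. That of *C1qb*, at -0.32 to -0.07 with each mouse left out, was 0.46 against the median and 0.26 against the mean of the Kupffer cell markers. The change of *C5ar1* relative to the C1q chains ran from -0.12 to 0.23. With each mouse left out, *Vsig4* stayed below 0, at -0.89 to -0.57 relative to the macrophage markers and -0.70 to -0.58 relative to the C1q chains.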
